A study of Mus musculus with 12 samples.

Results

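The meningeal fibroblast genes are 10 genes, taken by symbol from the 24421 listed in each of the 2 deposited tables: Dcn, Lum, Ogn and Fmod, Mgp, Aldh1a2 and Crabp2, Ptgds, Foxc1 and Foxd1. All 10 were found in both tables. They were read in 12 RNA sequencing libraries of mouse tissue in 4 groups of 3. ETV5 tumours were ependymomas with the ZFTA-RELA genotype and overexpression of the human ETV5 variant, an ETS family transcription factor. NPY tumours had the same genotype with overexpression of human variant NPY, the neuropeptide Y precursor. Control tumours carried ZFTA-RELA alone, a fusion that defines a class of ependymoma, and cortex was non-tumour cortex labelled wild-type. The fusion is thus shared by all 9 tumour libraries and not part of the cortex genotype. Age, sex, the way the genes were delivered and whether each replicate is a separate animal are not stated in the labels, so the p-values cover the spread among these libraries, which may be technical.

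Fibroblasts of the meninges form the dura, arachnoid and pia around the brain, and a related set lies along large vessels inside it. They lay down collagen and small leucine-rich proteoglycans, which bind collagen fibrils and set their spacing, and they make retinoic acid and prostaglandin D2. Foxc1 is needed for the meninges to form in the mouse embryo, and retinoic acid from the meninges acts on the cortex beneath. None of the genes is made by these cells alone: Ptgds is also a product of oligodendrocytes and choroid plexus, and Mgp and Dcn of vessel walls.

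The promoters of 5 members show how unlike these genes are at their starts, and they are set out here because 3 of the genes (Foxc1, Aldh1a2 and Ogn) were higher in control tumours than in cortex and the others (Ptgds and Fmod) lower. RefSeq's promoter table (GRCm38.p6) held 6 of the 10 members, of which Foxd1 is not printed. The 250 bases before the annotated start are printed 5′ to 3′ on the strand of the gene, with capitals for matches to 7 short motifs searched on both strands. These were the TATA box (TATAAA), the CCAAT box, the GC box (GGGCGG) and the letters bound by AP-1 (TGANTCA), forkhead factors (GTAAACA), ETS factors (CCGGAAG) and nuclear receptors (AGGTCA).
Foxc1 (chr13:31806396-31806645, plus strand): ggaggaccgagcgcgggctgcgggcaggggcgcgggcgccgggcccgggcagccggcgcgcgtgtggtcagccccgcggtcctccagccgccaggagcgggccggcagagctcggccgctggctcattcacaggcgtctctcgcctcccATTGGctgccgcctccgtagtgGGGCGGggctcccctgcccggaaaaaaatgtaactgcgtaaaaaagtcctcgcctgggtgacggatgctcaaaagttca
Aldh1a2 (chr9:71215539-71215788, plus strand): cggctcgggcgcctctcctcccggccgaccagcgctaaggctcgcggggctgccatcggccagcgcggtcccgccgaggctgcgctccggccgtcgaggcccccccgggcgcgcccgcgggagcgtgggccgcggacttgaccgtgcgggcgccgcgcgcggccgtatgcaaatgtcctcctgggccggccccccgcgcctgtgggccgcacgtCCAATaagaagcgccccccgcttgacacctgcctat
Ogn (chr13:49607765-49608014, plus strand): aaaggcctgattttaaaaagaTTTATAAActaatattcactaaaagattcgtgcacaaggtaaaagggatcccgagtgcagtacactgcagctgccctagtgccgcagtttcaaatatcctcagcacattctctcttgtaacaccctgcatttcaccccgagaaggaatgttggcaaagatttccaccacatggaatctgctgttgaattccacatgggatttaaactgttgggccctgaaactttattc
Ptgds (chr2:25469750-25469999, minus strand): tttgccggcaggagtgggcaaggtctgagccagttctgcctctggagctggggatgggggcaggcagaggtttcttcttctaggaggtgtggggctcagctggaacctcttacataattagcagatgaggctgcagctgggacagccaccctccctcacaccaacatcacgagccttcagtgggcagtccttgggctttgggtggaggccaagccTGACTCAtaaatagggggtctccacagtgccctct
Fmod (chr1:134037004-134037253, plus strand): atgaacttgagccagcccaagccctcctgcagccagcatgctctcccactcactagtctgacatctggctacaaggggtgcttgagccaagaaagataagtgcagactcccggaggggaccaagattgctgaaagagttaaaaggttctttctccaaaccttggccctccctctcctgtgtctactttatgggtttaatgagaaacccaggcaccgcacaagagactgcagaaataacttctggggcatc

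The Foxc1 and Aldh1a2 promoters were rich in G and C, at 70.8% and 77.6%, with 29 and 40 CpG dinucleotides. Across 32851 mouse promoters of the same length the median was 52.4% (quartiles 45.2% and 61.2%) with 6 CpG. The Ogn promoter was at 42.0% and held 4 CpG, and those of Ptgds and Fmod stood at 58.4% and 51.2% with 2 each. CCAAT occurred 36 bases before the Aldh1a2 start and, on the other strand, 101 bases before that of Foxc1, and 33.8% of all promoters hold it. Foxc1 also had a GC box (32.7% of promoters). TATAAA in Ogn lay 227 and, on the other strand with overlapping letters, 229 bases before the start (12.4% of promoters). Ptgds had an AP-1 match 35 bases before its start (6.75% of promoters), which lies 297 bases from the start of the gene in the GENCODE annotation. Fmod held none of the 7. No forkhead, ETS or nuclear receptor letters were found in these 5 windows, where 3.17%, 6.91% and 14% of all promoters hold them. The Foxd1 window, not printed, was at 57.2% G and C with 12 CpG, and held CCAAT and a GC box. All of these are matches of letters, and no binding was measured.

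Libraries held 6691146 to 11291057 reads in ETV5 tumours, 8214523 to 10481943 in NPY tumours, 6266613 to 9443466 in control tumours and 5962376 to 7444467 in cortex. Levels are CPM, reads scaled to those totals, and changes are log2 fold changes with standard errors (SE) from limma, fitted on log2(value + 1) of the deposited values, a scale that understates the change of low genes. A gene was called at an adjusted p under 0.05. Mouse Etv5 spanned 401 to 474 CPM in ETV5 tumours, 251 to 346 in NPY tumours, 264 to 322 in control tumours and 106 to 144 in cortex. Mouse Npy spanned 1.44 to 18.5 CPM in ETV5 tumours, 2.19 to 15.9 in NPY tumours, 21.5 to 46.1 in control tumours and 78.4 to 129 in cortex. Both added genes are human, so reads at the mouse loci do not check the labels. Cortical excitatory neuron markers summed to 77.6 to 570 CPM in ETV5 tumours, 78.0 to 94.4 in NPY tumours and 418 to 846 in control tumours, against 5872 to 7319 in cortex. The tumour libraries therefore differ in how much transcript of these markers they hold.

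The control tumours against cortex show the fusion-driven tumour beside non-tumour brain. Of the 9 members with enough reads to test, 6 rose (Lum, Dcn, Mgp, Ogn, Foxc1 and Aldh1a2) and 2 fell (Ptgds and Fmod). The groups did not overlap for any of these 8, which held for 38.3% of all genes in the higher and 38.9% in the lower direction. The background is wide, since 72% of all 14618 genes were called in this comparison, 35.7% higher and 36.2% lower. These shares are also the background for the counts from other gene lists in this comparison. The median log2 fold change was 2.17 over the tested members and -0.003 over all genes. In bulk tissue, fewer cells of a type and less RNA per cell cannot be told apart.

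**Figure D1:**
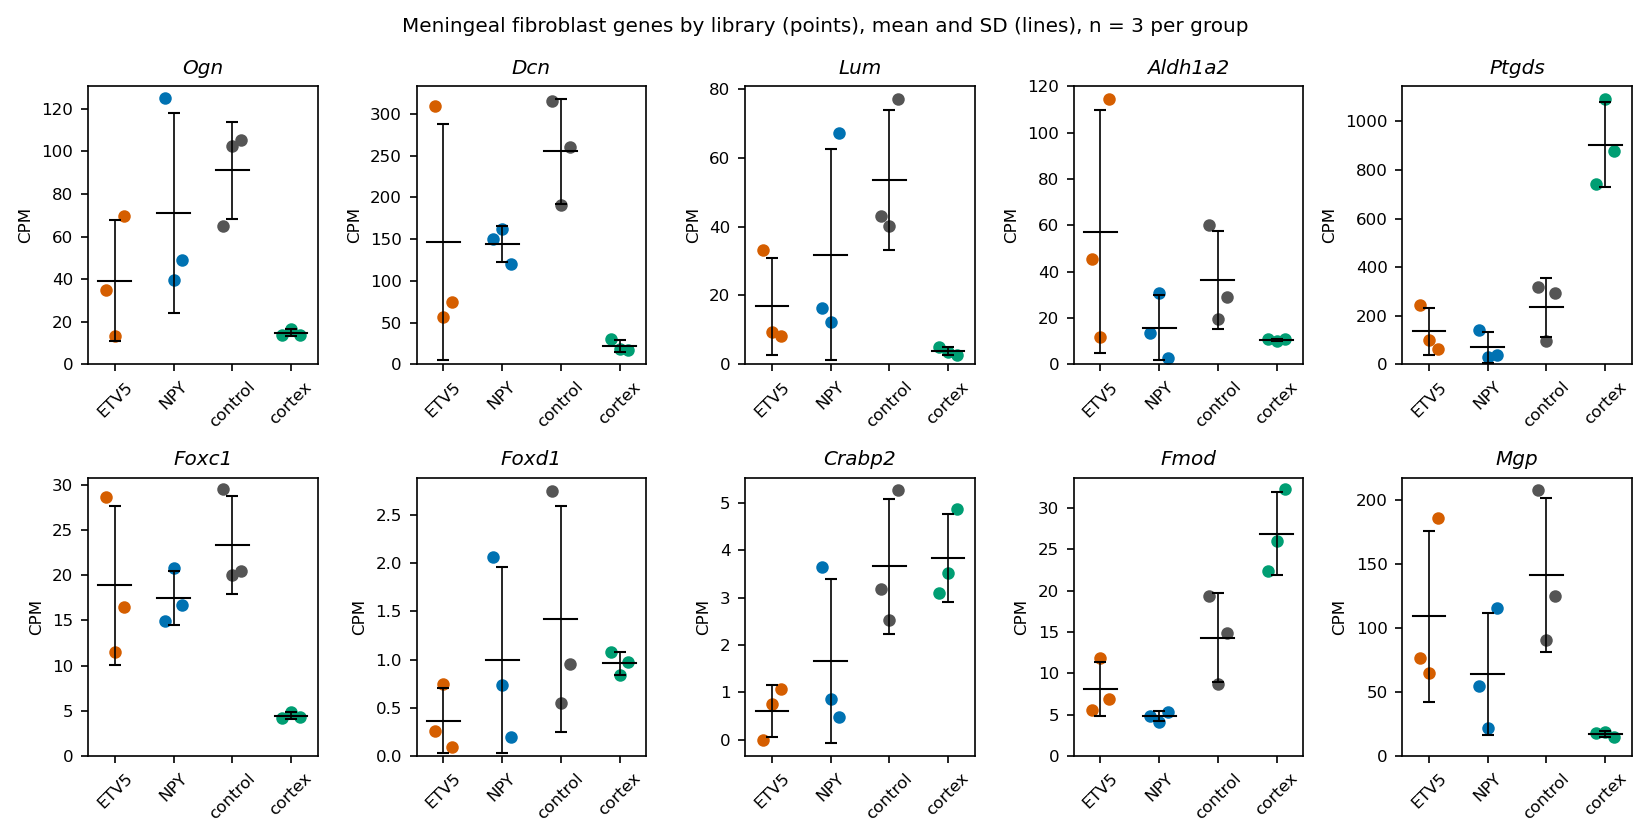
CPM of the 10 members (1 panel per gene, linear axis) in ETV5 tumours, NPY tumours, control tumours and cortex. Points are libraries, and lines are the mean and SD of 3. Lum, Dcn, Mgp, Ogn and Foxc1 are higher in each control tumour than in each cortex library, and Ptgds and Fmod are lower.

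Among the proteoglycans, Lum and Dcn had the largest rises of the members, and Fmod was 1 of the 2 that fell. Positions are those of GENCODE M21 on mm10, and all 10 genes are protein coding. Dcn (chromosome 10, 97479609 to 97518143, plus strand) encodes decorin, which binds collagen fibrils and TGF-beta. It was at 310, 56.2 and 74.6 CPM in ETV5 tumours, 150.1, 163 and 121 in NPY tumours, 315, 191 and 259.8 in control tumours and 30.6, 18.6 and 17.5 in cortex. All 9 tumour libraries were above the 3 cortex libraries, and ETV5 replicate 1 was as high as the controls while ETV5 replicates 2 and 3 were not. The control tumours were 10.2-fold above cortex (log2 fold change 3.36, SE 0.24, adjusted p = 5.14e-06).

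Lum (chromosome 10, 97565128 to 97572703, plus strand), next to Dcn, encodes lumican, a keratan sulphate proteoglycan. It stood at 33.2, 9.42 and 8.15 CPM in ETV5 tumours, 16.4, 12.2 and 67.1 in NPY tumours, 43.2, 40.3 and 77.1 in control tumours and 4.97, 3.69 and 2.64 in cortex. Control tumours were 12.1-fold above cortex (log2 fold change 3.59, SE 0.30, adjusted p = 1.21e-05). All tumour libraries were above all cortex libraries, and the ETV5 libraries were below each control library.

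Ogn (chromosome 13, 49608046 to 49624501, plus strand) encodes osteoglycin, also called mimecan. It was at 35.0, 13.5 and 69.4 CPM in ETV5 tumours, 125, 39.6 and 48.9 in NPY tumours, 64.9, 103 and 105 in control tumours and 13.8, 16.6 and 13.9 in cortex. Control tumours were above cortex by 2.41 on the log2 scale (SE 0.21, adjusted p = 1.37e-05). ETV5 replicate 2 was just below the lowest cortex library, and all other tumour libraries were above cortex. Ogn lies inside the span of Cenpp, a centromere protein gene on the opposite strand, with which it shares 0 exonic bases. Cenpp averaged 9.76 CPM in ETV5 tumours, 13.4 in NPY tumours, 8.96 in control tumours and 1.32 in cortex, and the sources used here do not say whether counting used strand.

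Fmod (chromosome 1, 134037254 to 134048277, plus strand) encodes fibromodulin, another fibril-binding member of the family, and went the other way. It was at 5.51, 11.8 and 6.91 CPM in ETV5 tumours, 4.86, 4.14 and 5.34 in NPY tumours, 19.4, 8.70 and 14.8 in control tumours and 22.4, 26.0 and 32.3 in cortex. All 9 tumour libraries were below all cortex libraries. Fmod fell in control tumours by 1.14 on the log2 scale (SE 0.28, adjusted p = 0.00623).

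Set against each other per length of exon, the make-up of these 4 transcripts was unlike in tumours and cortex. Fmod made up 7.56 ± 7.45% of their summed CPM per kb in ETV5 tumours, 2.22 ± 0.392% in NPY tumours, 4.09 ± 1.46% in control tumours and 42.3 ± 7.94% in cortex (SD, n = 3 each). The lowest cortex library had 34.9% and the highest tumour library, ETV5 replicate 2, 16.0%. Dcn made up 45.4 ± 18.4% in ETV5 tumours, 39.2 ± 14.8% in NPY tumours, 41.6 ± 9.51% in control tumours and 19.8 ± 6.26% in cortex. Lum made up 13.7 ± 5.52% in ETV5 tumours, 19.3 ± 17.8% in NPY tumours, 20.3 ± 4.83% in control tumours and 7.99 ± 2.42% in cortex. The Ogn shares overlapped between all groups, at 33.3 ± 23.2% in ETV5 tumours, 39.3 ± 17.1% in NPY tumours, 34.0 ± 9.50% in control tumours and 30.0 ± 3.51% in cortex. The shares were computed after the levels had been seen and were not tested.

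**Figure D2:**
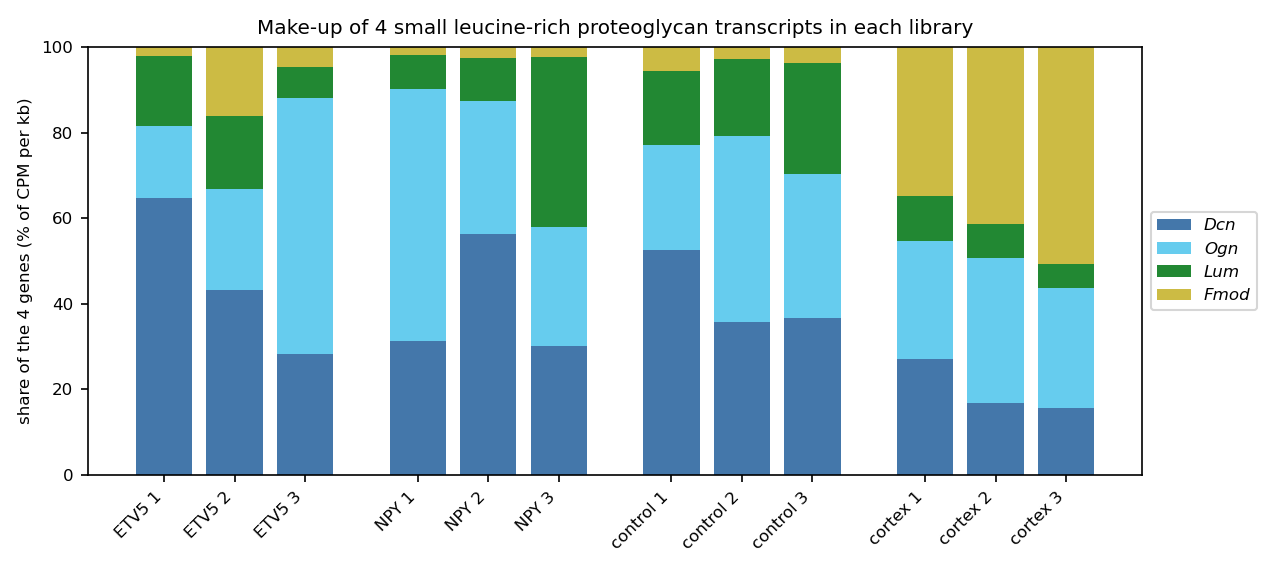
Share of Dcn, Lum, Ogn and Fmod in their summed CPM per kb of exon (percent, stacked bars), 1 bar per library, from ETV5 tumours on the left to cortex on the right. Fmod fills 34.9% to 50.7% of the cortex bars and at most 16.0% of the tumour bars.

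The gene next to Fmod differed from it in direction. Prelp, a proteoglycan of basement membranes in the same cluster on chromosome 1, was at 30.2, 15.1 and 29.3 CPM in ETV5 tumours, 3.40, 24.1 and 44.0 in NPY tumours, 69.8, 44.4 and 135 in control tumours and 15.04, 13.2 and 13.4 in cortex. Prelp rose in control tumours against cortex (log2 fold change 2.25, SE 0.33, adjusted p = 0.000309). Of 13 other small leucine-rich proteoglycans, 8 were tested, of which 4 rose and 0 fell in control tumours, with a median log2 fold change of 1.001. The others that rose were Bgn, the gene of biglycan (log2 fold change 3.01), Tsku (2.35) and Ecm2 (1.15), the last of them in the chromosome 13 cluster that also holds Ogn. Omd (-0.05), Aspn (0.79), Epyc (0.85) and Podn (-0.68) were not called, and Kera, Optc, Nyx, Chad and Podnl1 had too few reads.

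Mgp (chromosome 6, 136872435 to 136875823, minus strand) encodes matrix Gla protein, a vitamin K dependent inhibitor of calcification made by vessel walls, cartilage and fibroblasts. It was at 76.6, 65.0 and 186 CPM in ETV5 tumours, 54.4, 21.7 and 115 in NPY tumours, 208, 90.9 and 125 in control tumours and 18.1, 18.3 and 14.8 in cortex. All tumour libraries were above all cortex libraries, with NPY replicate 2 nearest to them. Mgp was higher in control tumours by 2.79 on the log2 scale (SE 0.27, adjusted p = 2.64e-05). Of 11 tested genes of mineral handling and the Gla system, 7 rose and 3 fell (median 1.08), beside 35.7% and 36.2% of all genes. The rises included Spp1, the osteopontin gene (7.27), Eln, the elastin gene (5.02), and Fbn1, the fibrillin 1 gene (3.33). The falls were Alpl, a phosphatase that promotes mineral deposition (-1.64), Ank, which exports pyrophosphate (-1.53), and Vkorc1l1, a vitamin K reductase (-0.75).

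The retinoid genes were split. Aldh1a2 (chromosome 9, 71215789 to 71296243, plus strand) encodes the retinaldehyde dehydrogenase of embryonic meninges. It stood at 45.7, 11.7 and 115 CPM in ETV5 tumours, 13.7, 30.9 and 2.86 in NPY tumours, 60.0, 19.5 and 29.2 in control tumours and 10.9, 10.2 and 10.9 in cortex. Its tumour libraries ranged more widely than those of any other member with a mean above 5 CPM in tumours, and NPY replicate 3 was below cortex. Aldh1a2 rose in control tumours against cortex (log2 fold change 1.42, SE 0.35, adjusted p = 0.00602), a call that was lost when cortex, control and ETV5 libraries were fitted together (adjusted p = 0.119).

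Crabp2 (chromosome 3, 87948666 to 87953376, plus strand) encodes a protein that carries retinoic acid to its nuclear receptors. It had 0, 5 and 12 reads in ETV5 tumours, 30, 7 and 5 in NPY tumours, 30, 23 and 33 in control tumours and 23, 21 and 35 in cortex. As CPM these were 0, 0.747 and 1.06 in ETV5 tumours, 3.64, 0.852 and 0.477 in NPY tumours, 3.18, 2.53 and 5.27 in control tumours and 3.09, 3.52 and 4.87 in cortex. The 0 in ETV5 replicate 1 allows up to 0.394 CPM (3 reads, counting error only). Control tumours and cortex overlapped, with a difference of -0.27 on the log2 scale (SE 0.35, adjusted p = 0.503).

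Of 17 other tested genes of the retinoic acid pathway, 10 rose and 4 fell in control tumours against cortex (median 0.93). The shares of all genes were 35.7% and 36.2%. Rarg, a retinoic acid receptor, rose by a log2 fold change of 3.71, and Aldh1a1, another retinaldehyde dehydrogenase, by 3.46. Aldh1a1 was far more abundant than Aldh1a2 in CPM, at 615 ± 513 in ETV5 tumours, 824 ± 369 in NPY tumours, 633 ± 212 in control tumours and 48.9 ± 5.69 in cortex. The falls with the lowest adjusted p were those of Rxrb (-0.71), Fabp5 (-0.63) and Rdh5 (-1.08).

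Ptgds (chromosome 2, 25466709 to 25470046, minus strand) encodes the lipocalin-type prostaglandin D2 synthase of the brain. It was at 243, 100.3 and 63.0 CPM in ETV5 tumours, 143, 29.2 and 38.4 in NPY tumours, 316, 95.4 and 294 in control tumours and 743, 1092 and 878 in cortex. All tumour libraries were below all cortex libraries. Ptgds fell in control tumours by 2.28 on the log2 scale (SE 0.40, adjusted p = 0.000969). Markers of mature oligodendrocytes and choroid plexus, which also make Ptgds, moved the same way. The 10 oligodendrocyte markers summed to 449 to 1945 CPM in ETV5 tumours, 380 to 1413 in NPY tumours, 1849 to 3844 in control tumours and 14568 to 18374 in cortex, and 10 of 10 fell in control tumours against cortex. The 10 choroid plexus markers summed to 16.4 to 325 CPM in ETV5 tumours, 9.01 to 267 in NPY tumours, 44.1 to 154 in control tumours and 584 to 1430 in cortex. Of these, 8 fell and 1 rose in control tumours, and Otx2 had 0 reads in NPY and control tumours. Their part in the level of Ptgds was not tested.

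Other prostaglandin genes mostly rose in control tumours, 6 of 8 tested, with 1 fall (median 1.94). Ptges, a prostaglandin E2 synthase (4.49), the transporter Slco2a1 (2.90) and Hpgds, the other prostaglandin D2 synthase, which is found in immune cells (2.34), rose. Ptges2 fell (-0.87). Hpgds was at 28.9 ± 10.1 CPM in ETV5 tumours, 37.9 ± 12.4 in NPY tumours, 46.5 ± 2.93 in control tumours and 8.13 ± 1.56 in cortex, so the D2 synthases differed in direction between tumour and cortex.

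The forkhead factors were among the less abundant members. Foxc1 (chromosome 13, 31806633 to 31812476, plus strand), a factor needed for the meninges, was at 28.6, 11.5 and 16.5 CPM in ETV5 tumours, 14.9, 20.8 and 16.7 in NPY tumours, 29.5, 20.03 and 20.4 in control tumours and 4.16, 4.86 and 4.32 in cortex. No tumour library reached down to the cortex range. Foxc1 rose in control tumours (log2 fold change 2.17, SE 0.23, adjusted p = 4.11e-05). Foxd1 (chromosome 13, 98354242 to 98359305, plus strand), a factor of meningeal and renal stromal precursors, had 2, 5 and 1 reads in ETV5 tumours, 17, 6 and 2 in NPY tumours, 26, 5 and 6 in control tumours and 8, 5 and 7 in cortex. It was below the filter on low counts in all 4 comparisons, and its cortex libraries lay inside the control range. Of 8 other tested forkhead genes, 5 rose and 2 fell (median 1.42), beside 35.7% and 36.2% of all genes. Foxf1 (2.71), Foxs1 (2.08) and Foxf2 (1.74), all of mesenchyme and vessel walls, were among the rises. Foxp1 (-1.26), which neurons also express, was among the falls.

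Other genes named for meningeal fibroblasts went both ways. Of 53 listed, 52 were in the tables and 47 were tested in control tumours against cortex, of which 24 rose and 13 fell (median 0.83). Of all genes, 35.7% rose and 36.2% fell. Col1a1, a fibrillar collagen chain, averaged 729 ± 181 CPM in ETV5 tumours, 1033 ± 499 in NPY tumours, 1668 ± 549 in control tumours and 14.3 ± 3.31 in cortex, a log2 fold change of 6.65 between control tumours and cortex. Bmp7, a bone morphogenetic protein (3.92), and Spp1 (7.27) rose with it. The falls with the lowest adjusted p were those of Nov, a matricellular protein gene (-2.36), Gjb6, which encodes a connexin (-2.27), and Slc22a8, an organic anion transporter (-2.24). Which cells these transcripts came from was not tested.

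Grouped after their values had been seen, 5 of 6 collagens rose and 0 fell (median 3.58), whereas of 6 tested solute carriers 5 fell and 1 rose (median -1.68). Slc6a13, a GABA and taurine carrier of meningeal and choroid barrier cells, had the largest fall of the list (-2.79) and was at 0, 1.94 and 2.92 CPM in ETV5 tumours, 1.09, 1.22 and 0.382 in NPY tumours, 2.01, 1.32 and 2.55 in control tumours and 13.03, 10.1 and 14.3 in cortex. Slc13a3, a dicarboxylate carrier, was the one that rose (2.63), with 43.6 to 266 CPM in ETV5 tumours, 17.1 to 199 in NPY tumours, 121 to 146 in control tumours and 17.4 to 20.0 in cortex.

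**Figure D3:**
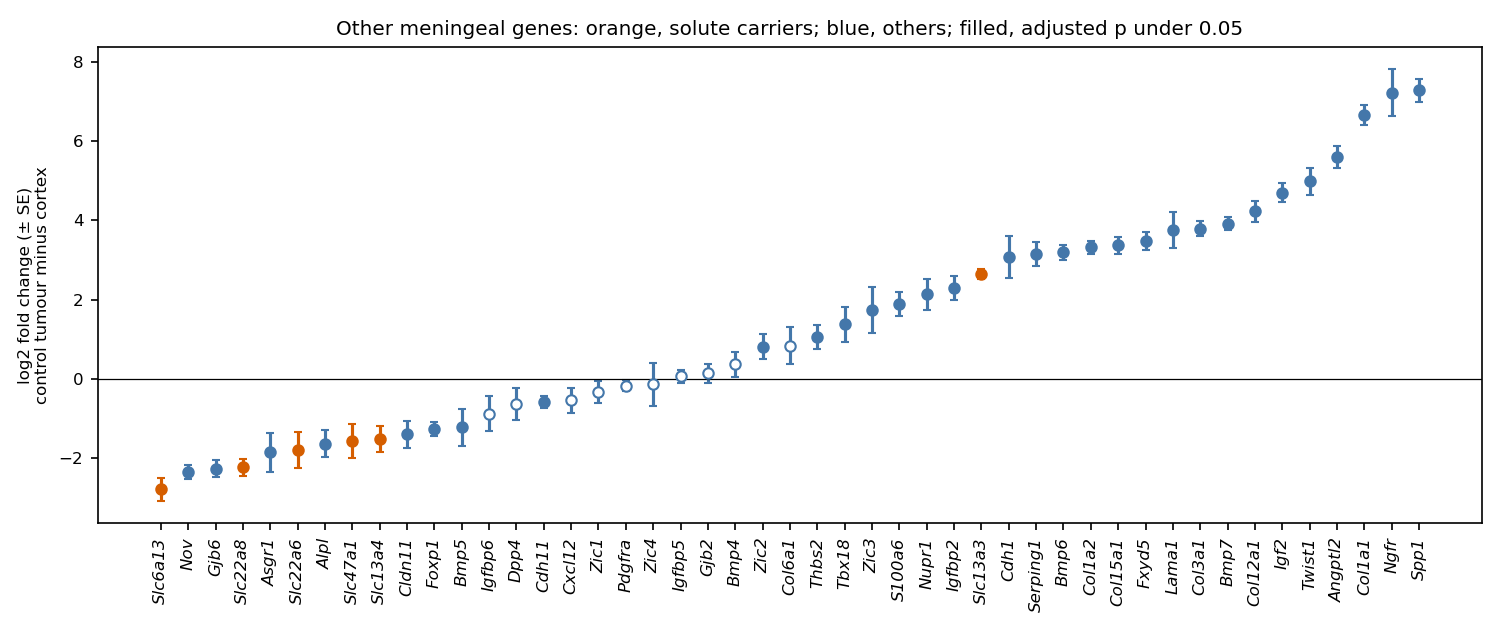
Limma log2 fold change (± SE) of control tumours minus cortex for the other meningeal genes. Orange marks solute carriers, blue the others, and filled points have an adjusted p under 0.05. Most solute carriers lie below 0 and Slc13a3 above it.

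Markers of vessel cells and border macrophages moved with the members that rose. The 12 pericyte and smooth muscle markers summed to 305 to 436 CPM in ETV5 tumours, 320 to 490 in NPY tumours, 476 to 578 in control tumours and 176 to 200 in cortex, and 7 rose and 1 fell in control tumours against cortex. The 12 endothelial markers summed to 297 to 480 CPM in ETV5 tumours, 215 to 549 in NPY tumours, 494 to 605 in control tumours and 156 to 232 in cortex, and 9 rose. The 8 border macrophage markers summed to 73.2 to 167 CPM in ETV5 tumours, 225 to 398 in NPY tumours, 234 to 409 in control tumours and 23.3 to 31.4 in cortex, and 4 of 6 tested rose. Their part in the levels of Dcn, Lum, Ogn and Mgp was not tested.

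ETV5 tumours were also set against cortex. Of 9 tested members 4 rose (Mgp, Dcn, Foxc1 and Lum) and 3 fell (Ptgds, Crabp2 and Fmod), beside 63.8% of all genes called, 31.8% higher and 32% lower. On the log2 scale Mgp was higher by 2.33 (SE 0.41, adjusted p = 0.00286), Dcn by 2.15 (SE 0.63, adjusted p = 0.0219), Foxc1 by 1.77 (SE 0.36, adjusted p = 0.00453) and Lum by 1.69 (SE 0.56, adjusted p = 0.0362). Ptgds fell by 3.14 (SE 0.46, adjusted p = 0.00129), Crabp2 by 3.06 (SE 0.85, adjusted p = 0.0186) and Fmod by 1.96 (SE 0.32, adjusted p = 0.00196). Ogn (0.93, SE 0.57, adjusted p = 0.196) and Aldh1a2 (1.69, SE 0.77, adjusted p = 0.0966) were not called. Aldh1a2 was called by edgeR and DESeq2, at 2.29 and 2.26 (adjusted p = 0.0390 and 0.00371), which called 63.5% and 66.4% of all genes. Both genes were called without ETV5 replicate 2, at 1.56 and 2.57 (adjusted p = 0.00935 and 0.00286), which is the lowest ETV5 library for each. Without cortex replicate 2 or 3 the calls of Dcn, Lum and Crabp2 were lost, and without cortex replicate 1 that of Lum was (adjusted p = 0.0604). Without ETV5 replicate 1, the highest ETV5 library for both, Dcn and Lum remained called at 1.42 and 1.07 (adjusted p = 0.00535 and 0.0302). This comparison shares its cortex libraries with the one above.

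NPY tumours were normalized in a table without cortex, so their levels stand beside cortex with no test. Dcn, Lum, Ogn, Mgp and Foxc1 were higher in each NPY library than in each cortex library, and Ptgds and Fmod lower, as were 42.1% and 34.6% of the 14942 genes with a mean of at least 1 CPM. Aldh1a2, Crabp2 and Foxd1 overlapped. ETV5 and NPY tumours were set side by side in the same way, and Fmod was the single member whose libraries did not overlap, at 5.51 to 11.8 CPM in ETV5 tumours and 4.14 to 5.34 in NPY tumours. Of 14422 genes with a mean of at least 1 CPM, 7.62% were higher in each ETV5 library and 4.94% lower, so 1 of 10 members is near the background.

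The comparison of ETV5 tumours with control tumours concerns the added ETS factor. No member was called. Among all 14379 genes tested 0% were called by limma, edgeR called 0 and DESeq2 75 (0.544%). An unadjusted limma p under 0.05 was reached by 945 genes (6.57%) and by 3 members. Of the 9 tested members 8 had a negative log2 fold change, where 51.9% of all genes did, and the median was -0.85 against -0.02 over all genes. The libraries of Lum and Crabp2 were each lower in ETV5 tumours than in every control tumour, which held for 7.48% of all genes. Lum had a log2 fold change of -1.90 (SE 0.55), Crabp2 of -2.79 (SE 0.90), Ogn of -1.48 (SE 0.59), Dcn of -1.21 (SE 0.61) and Fmod of -0.82 (SE 0.41), each with an adjusted p = 0.732.

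The other 4 had higher adjusted p-values. Ptgds was at -0.85 (SE 0.61, adjusted p = 0.774), Mgp at -0.46 (SE 0.48, adjusted p = 0.840), Foxc1 at -0.39 (SE 0.36, adjusted p = 0.824) and Aldh1a2 at 0.27 (SE 0.85, adjusted p = 0.960). The sign of Aldh1a2 rested on ETV5 replicate 3, since the log2 fold change was -0.52 without it. That library also has another code prefix in its label than the other ETV5, control and cortex libraries. Within the shared prefix, Ogn was at -2.06, Lum at -1.56, Crabp2 at -3.41, Dcn at -0.96, Mgp at -0.95, Fmod at -0.78, Ptgds at -0.44 and Foxc1 at -0.37, and none was called. The labels do not say what the prefix stands for.

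**Figure D4:**
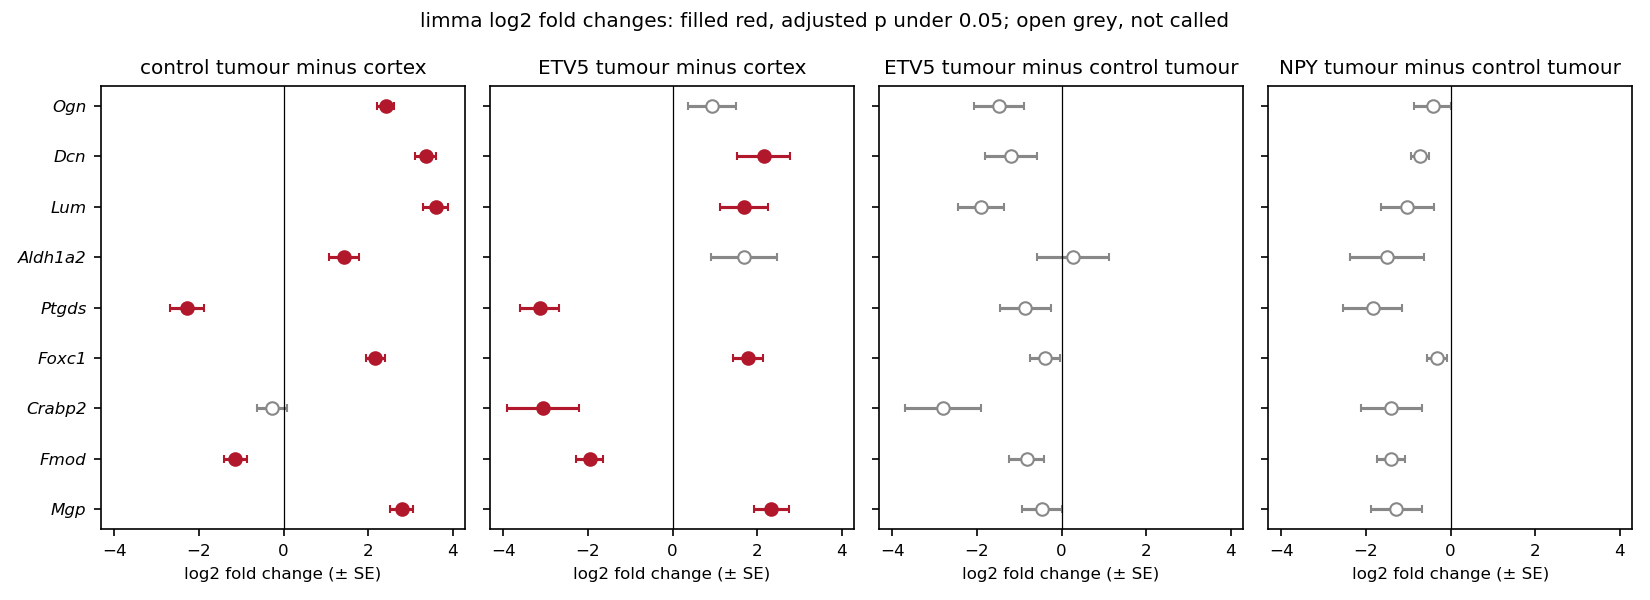
Limma log2 fold change (± SE) of the tested members in 4 comparisons, 1 panel each. Filled red points have an adjusted p under 0.05 and open grey points do not: 8 are filled for control tumours minus cortex, 7 for ETV5 tumours minus cortex and 0 for either tumour set minus control tumours.

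NPY tumours were compared with control tumours in the second table. No member was called here either, where 5.04% of all 14422 genes were, 0.728% higher and 4.31% lower. An unadjusted p under 0.05 was reached by 23.5% of genes and by 3 members. All 9 tested members had a negative log2 fold change, where 46.8% of all genes did, and the median was -1.29 against 0.04 over all genes. Fmod and Dcn were lower in each NPY library than in each control library, which held for 15.8% of all genes. The log2 fold change was -1.41 for Fmod (SE 0.33, adjusted p = 0.0630) and -0.72 for Dcn (SE 0.22, adjusted p = 0.1103). Both were called by DESeq2 on the recovered reads, with -1.50 (adjusted p = 0.00297) and -0.75 (adjusted p = 0.0287), a method that called 12.7% of all genes.

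For the rest the NPY and control libraries overlapped. Ptgds was at -1.84 (SE 0.70, adjusted p = 0.178), Aldh1a2 at -1.50 (SE 0.87, adjusted p = 0.349), Crabp2 at -1.40 (SE 0.73, adjusted p = 0.298), Mgp at -1.29 (SE 0.60, adjusted p = 0.256), Lum at -1.02 (SE 0.63, adjusted p = 0.380), Ogn at -0.43 (SE 0.44, adjusted p = 0.613) and Foxc1 at -0.32 (SE 0.23, adjusted p = 0.457). All NPY libraries carry the other code prefix and all control and cortex libraries the first. Prefix and group thus cannot be told apart, here or where NPY tumours stand beside cortex. Of the ETV5 libraries, replicate 3 alone shares the prefix of the NPY libraries, which limits the view of those groups side by side. The ETV5 and NPY comparisons share the control tumours.

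In the wider lists the ETV5 comparison had 0 calls. The NPY comparison had few, except among the cortical excitatory neuron markers, of which 7 of 10 fell (median -3.33). Of all genes, 4.31% were called lower there. Of the other meningeal genes, 36 of 46 tested were negative in ETV5 tumours against control tumours (median -0.74) and 37 of 47 in NPY tumours (median -0.70). Of all genes, 51.9% and 46.8% were negative. In NPY tumours Bmp6 rose (log2 fold change 0.84, SE 0.17, adjusted p = 0.0438). Gjb6 (-3.28, SE 0.43, adjusted p = 0.0153) and Slc22a8 (-2.34, SE 0.40, adjusted p = 0.0280) fell, where 5.04% of all genes were called. Slc22a8 rests on few reads, 8, 6 and 5 in NPY tumours and 46, 35 and 26 in control tumours. Aldh1a3, a further retinaldehyde dehydrogenase, rose in NPY tumours, at 30.1, 25.1 and 26.7 CPM there and 11.3, 8.04 and 16.8 in control tumours (log2 fold change 1.32, SE 0.28, adjusted p = 0.0465). The calls depend on single libraries: 727 genes were called in NPY tumours against control tumours, and the count was 1 without control replicate 2, 78 without control replicate 3, 138 without control replicate 1 and 125 without NPY replicate 1. The small leucine-rich proteoglycans other than the members had 0 calls in both comparisons, with medians of -0.71 in ETV5 tumours and -1.21 in NPY tumours.

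Markers of other cells went different ways. Against control tumours, 11 of 12 pericyte and 12 of 12 endothelial markers were negative in ETV5 tumours and likewise in NPY tumours, with Vtn, a pericyte product (-2.26), and the endothelial transporters Slco1a4 (-2.64) and Abcb1a (-1.02) falling in NPY tumours. The 6 tested border macrophage markers had a median of -0.998 in ETV5 tumours (5 negative) and the 7 tested in NPY tumours one of 0.26 (3 negative). Of the choroid plexus markers 3 were tested, with a median of 0.71 in ETV5 tumours (0 negative) and -0.28 in NPY tumours (2 negative). The median level of the cortical excitatory neuron markers, relative to cortex, was 0.681%, 9.15% and 2.68% in ETV5 tumours, 0.667%, 1.29% and 0.537% in NPY tumours and 6.55%, 7.99% and 14.9% in control tumours. This is a level of transcripts, and the share of cortical tissue was not measured. These markers were negative against control tumours for 9 of 10 in ETV5 tumours (median -1.64) and 9 of 10 in NPY tumours (median -3.33). Mature oligodendrocyte markers were negative for 10 of 10 in ETV5 tumours (median -1.56). In NPY tumours 9 of 10 were (median -1.73), and 1 was called. Their sums, given above, were lower in each NPY library than in each control library. A shift below 0 against control tumours was thus not particular to the members. The part of these cells in the member values was not tested.

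The members varied more between tumours than between cortex libraries. The spread of all genes was not computed, so this is not shown to be particular to the members. The coefficient of variation over 3 libraries had a median across the 10 members of 77.6% in ETV5 tumours (range 40.9% to 96.3%), 82.0% in NPY tumours (12.7% to 104%), 38.6% in control tumours (23.1% to 82.5%) and 15.4% in cortex (3.46% to 32.6%). The 9 members other than Ptgds summed to 398 ± 190 CPM in ETV5 tumours, 352 ± 50.9 in NPY tumours, 620.1 ± 136 in control tumours and 105 ± 3.93 in cortex (SD, n = 3 each). Mean CPM was below that of control tumours for 9 of 10 members in ETV5 tumours and for 10 of 10 in NPY tumours.

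Ordered by CPM per kb of exon, the genes changed places between tissue and tumour. In ETV5 tumours the order was Mgp (92.0), Ptgds (82.1), Aldh1a2 (25.3), Dcn (25.2), Ogn (15.3), Lum (6.91), Foxc1 (3.23), Fmod (2.44), Crabp2 (0.456) and Foxd1 (0.0723), and the libraries of neighbours overlapped except between Fmod and Crabp2. In NPY tumours it was Mgp (53.8), Ptgds (42.7), Ogn (27.7), Dcn (24.7), Lum (13.02), Aldh1a2 (6.99), Foxc1 (2.99), Fmod (1.45), Crabp2 (1.25) and Foxd1 (0.197), with overlap except between Foxc1 and Fmod. Mgp and Ptgds thus led in both, with overlapping libraries.

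In control tumours the order was Ptgds (143), Mgp (119), Dcn (43.7), Ogn (35.5), Lum (21.9), Aldh1a2 (16.0), Fmod (4.33), Foxc1 (3.99), Crabp2 (2.77) and Foxd1 (0.280). Neighbours did not overlap between Mgp and Dcn, between Aldh1a2 and Fmod and between Crabp2 and Foxd1. In cortex Ptgds stood alone at 548 ± 107 (SD, n = 3), followed by Mgp (14.4), Fmod (8.14), Ogn (5.76), Aldh1a2 (4.71), Dcn (3.81), Crabp2 (2.90), Lum (1.54), Foxc1 (0.761) and Foxd1 (0.190). There Aldh1a2 overlapped Dcn and Dcn overlapped Crabp2, and other neighbours were apart.

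Across the 9 tumour libraries, the median of the 8 members with a mean of at least 5 CPM, each centred on its own mean of log2(CPM + 1), was 0.45, -0.85 and -0.20 in ETV5 tumours, -0.48, -0.66 and -0.29 in NPY tumours and 1.09, 0.08 and 0.76 in control tumours. Control replicates 1 and 3 were thus the highest and ETV5 replicate 2 the lowest. Foxc1 lay nearest to this median, with a root mean square difference of 0.388 on the log2 scale, followed by Dcn at 0.486 and Fmod at 0.557. Mgp (0.710), Ptgds (0.795), Lum (0.814) and Ogn (0.871) lay farther off, and Aldh1a2 farthest, at 1.21. The members thus followed their median loosely, although each of the 8 helps to set it. Of 12393 other genes, those nearest to the median over the 9 libraries were Sema5a (0.188), a transmembrane semaphorin, Mob3b (0.238), Dpysl2 (0.242), a cytoskeletal regulator of axons, Ctgf (0.253), a matricellular protein gene, and Plxdc2 (0.256). All 5 lay nearer to it than any member, so they resemble the median and not each member. Likeness over 9 libraries of 3 groups reflects the group means as well as the libraries within groups.

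**Figure D5:**
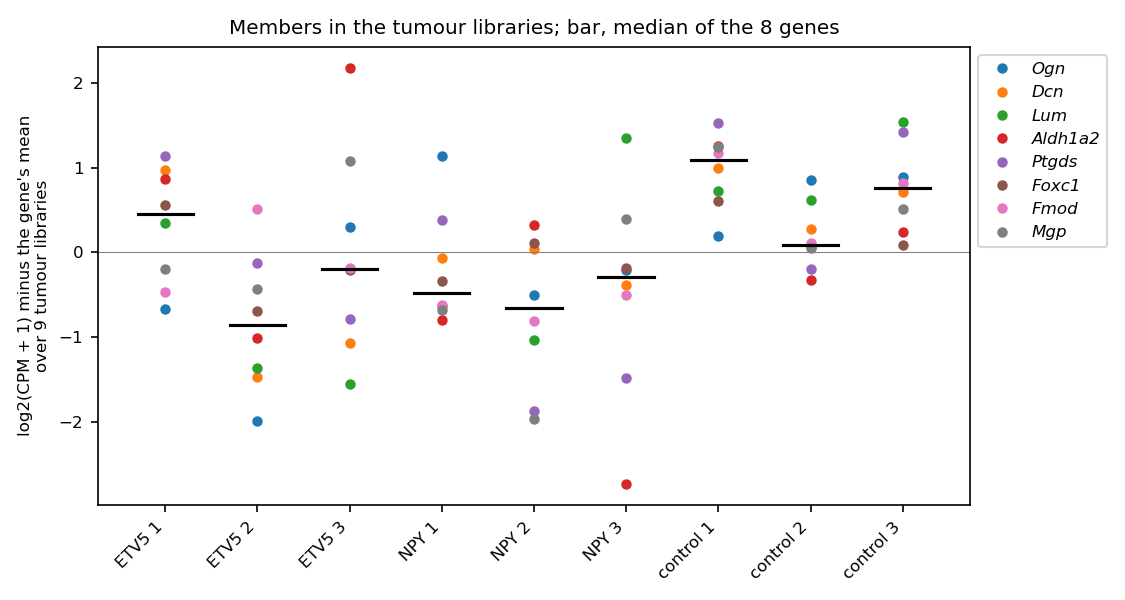
Log2(CPM + 1) of the 8 members with a mean of at least 5 CPM, minus each gene's mean, in the 9 tumour libraries (ETV5, NPY, control), with a bar for their median. The median is highest in control replicate 1 (1.09) and lowest in ETV5 replicate 2 (-0.85), and Aldh1a2 strays farthest from it.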

How the data were processed

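PolyA RNA of 12 mouse libraries was sequenced from 300 ng total RNA with a stranded paired-end kit, per the labels' protocols. Per the submitters' processing notes, the build was mm10, STAR 2.5.0a and DESeq2 1.30.1 were used, and FastQC 0.11.7 and MultiQC 1.6 served for quality control. How reads were counted, on which annotation and with which strand setting is not stated. The authors deposited a normalized signal, 24421 genes in each of 2 tables (cortex, control and ETV5 libraries, and control and NPY libraries). Dividing each library by its smallest step gave whole reads for 100% of values within 0.01 read, and the reads of the 3 control libraries were the same in the 2 tables. The 4 rows with a repeated name were left out, which leaves 24417 genes, and 27 names had become dates.

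Groups and replicate numbers come from the titles. CPM were computed from the recovered totals, and CPM per kb from the exon length in GENCODE M21. Since the values were normalized, limma 3.58.1 (R 4.3.3; trend, robust) was fitted on log2(value + 1) with group as the sole term, on the 2 groups compared, after the edgeR 4.0.16 filter (10 reads at the median library size in 3 libraries, 15 in total). Tests were two-sided, with Benjamini-Hochberg adjustment over all genes tested and calls under 0.05. With 3 libraries a group, an exact permutation test cannot go below 0.1. Each table was tested alone, so NPY tumours were compared with control tumours alone. The script was tested on simulated data.

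The members and gene lists were chosen with earlier results of these data known. Genes named are the members, the other small leucine-rich proteoglycans, up to 3 called genes per direction of each list with the lowest adjusted p, and the 5 genes most like the members in tumours. Genes outside the rule are said to be so, and some genes that the rule allows are not reported here. Alternatives were edgeR and DESeq2 1.42.0 on the recovered reads, TMM scaling, pseudocounts of 0.5 and 5, no filter, all groups of a table in 1 fit, a replicate block and each library left out.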

Additional observations from a re-analysis of the deposited data

How the results depend on the processing

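Of 495 member values under other settings, 479 kept their direction and their side of the threshold, 8 lost a call, 6 gained one and 2 changed sign. Both sign changes were Aldh1a2 in ETV5 tumours against control tumours, at -0.52 without ETV5 replicate 3 and -0.07 without control replicate 2 (range to 1.15, without ETV5 replicate 2). DESeq2 called 75 genes in ETV5 tumours against control tumours (17 higher, 58 lower) and 1833 in NPY tumours (606 higher, 1227 lower), where limma called 0 and 727, and in NPY tumours it called 2 members, Dcn and Fmod. Leaving out 1 library gave 1 to 571 calls in NPY tumours against control tumours, with 1 without control replicate 2, 78 without control replicate 3, 125 without NPY replicate 1 and 138 without control replicate 1. Of the genes named as called there (Bmp6, Gjb6, Slc22a8, Aldh1a3, Vtn, Slco1a4 and Abcb1a), no more than 1 is called without control replicate 2. In ETV5 tumours against cortex, 4 to 9 members were called when 1 library was left out, with 4 without cortex replicate 2 or 3. In control tumours against cortex 8 members were called whichever library was left out, with 9770 to 10906 genes. The cause of these differences was not tested. Libraries of the same replicate number correlated, across genes after group means were removed, between -0.392 and 0.365. For libraries of different numbers the range was -0.542 to 0.507. With 3 libraries centred on their group mean these correlations depend on each other, so they cannot settle whether samples were paired. With a replicate block the calls in NPY tumours against control tumours numbered 264 (18 higher, 246 lower), and the block changed no member call. Depth limits Foxd1 and Crabp2, with 35 reads or fewer in each library.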

Other observations

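Aldh1a2 did not vary alone among the tumours. Stra6, the membrane receptor that takes up retinol, was at 14.0, 8.97 and 68.1 CPM in ETV5 tumours, 8.26, 19.5 and 4.48 in NPY tumours, 24.9, 7.82 and 8.62 in control tumours and 4.43, 4.86 and 3.76 in cortex. Like Aldh1a2, it was highest in ETV5 replicate 3 within its group, in NPY replicate 2 within that group and in control replicate 1 among the controls. Rarg, a retinoic acid receptor, was at 46.3, 66.1 and 168 CPM in ETV5 tumours, 76.0, 183 and 58.5 in NPY tumours and 105, 112 and 78.5 in control tumours, and Slc13a3 was at 43.6, 64.3 and 266 CPM in ETV5 tumours, 17.1, 199 and 32.2 in NPY tumours and 146, 131 and 121 in control tumours. Both were highest in the same ETV5 and NPY libraries as Aldh1a2. The match was partial, since both were lowest in ETV5 replicate 1 and Aldh1a2 in ETV5 replicate 2. Slc13a3 was lowest in NPY replicate 1 and Aldh1a2 in NPY replicate 3. Rarg was highest in control replicate 2 among the controls. These genes were picked after their values had been seen, and the likeness was not tested.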
